A study of Mus musculus with 30 samples.

Results

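HE2 cells that lack Sp3 were compared directly with HE2 cells whose Sp1 cannot bind DNA, with no wild-type sample in the comparison. HE2 is the later of the haemogenic endothelium populations in the differentiation of mouse embryonic stem cells (ESC) to blood. The comparison used the deposited columns of both mutants in HE2, which are 4 of the 30 RNA-seq samples of the series, and all 14685 genes of the table. The cells were E14 mouse ESC lines taken through the same protocol and sort gate, although the study let the length of the embryoid body stage depend on the cell line. Flk1+ cells, the mesodermal precursors of blood and endothelium, were purified from embryoid bodies and seeded in blast culture, and KIT+ CD41+ Tie2+ cells were sorted on day 2 as HE2. One group, with 2 replicates, carried the Sp1_deltaDBD genotype, in which both Sp1 alleles lack the DNA-binding domain (Sp1ΔDBD/ΔDBD). The other, with 2 replicates, carried the Sp3KO genotype, a complete knockout (Sp3−/−). Each genotype is represented by a cell line of its own, so effects of the mutation and other differences between the lines cannot be told apart. The study compared each mutant with wild type in 5 populations, and the direct comparison asks which genes separate the mutants at this stage.

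Sp1 and Sp3 are closely related zinc finger transcription factors present in most cells. Both bind the GC box, a short GC-rich element common in promoters within CpG islands, including those of many housekeeping genes. Haemogenic endothelium is the specialised endothelium from which the first blood cells emerge, and it loses endothelial and gains haematopoietic gene expression as it does so.

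RNA was measured as FPKM, fragments scaled to transcript length and to the mapped fragments of the library, which the authors had quantile normalised over all samples. FPKM values carry no read counts, and the depth of the libraries is unknown here. The lowest value of a sample, between 0.00093 and 0.0143 FPKM in these 4, was held by 934 to 1499 genes and is described here as listed at the floor. Across the 11441 genes with a mean above 1 FPKM, the log2 values of the Sp3−/− replicates had a Pearson correlation of 0.978 and those of the Sp1ΔDBD/ΔDBD replicates 0.952, while pairs across genotypes lay between 0.908 and 0.941. The sort markers were present in every sample. Kit stood at 26.2 and 50.3 FPKM in the Sp1ΔDBD/ΔDBD and 31.4 and 24.3 FPKM in the Sp3−/− samples, and Tek, which encodes Tie2, at 85.6 and 72.9 against 57.7 and 67.1 FPKM. Itga2b, which encodes CD41, stood at 97.0 and 115 against 130 and 134 FPKM. None of these genes passed the test between the mutants (adjusted p = 0.44, 0.516 and 0.722). The markers of other cells were uneven between the Sp1ΔDBD/ΔDBD replicates. The summed level of 5 mesenchyme and muscle markers was 249 FPKM in replicate 1 and 23.8 FPKM in replicate 2, against 96.0 and 84.7 FPKM in Sp3−/− cells, and most of it was Acta2, the smooth muscle actin gene (239, 21.6, 88.8 and 76.6 FPKM). Krt8, an epithelial keratin, moved with it (48.7, 2.99, 26.9 and 17.7 FPKM). Markers of undifferentiated ESC summed to 0.552 to 2.73 FPKM in the 4 samples. In sorted populations such as these, fewer cells of a type and less RNA per cell cannot be told apart.

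Differences are given as the mean log2(FPKM + 0.1) of the Sp3−/− samples minus that of the Sp1ΔDBD/ΔDBD samples, so that a positive value means higher in Sp3−/− cells. They were tested with limma over all genes, two-sided with Benjamini-Hochberg adjustment, and a gene was called at an adjusted p under 0.05. With 2 samples in each group an exact permutation test reaches at best p = 0.333, so the spread was estimated from the 20 mutant samples of all 5 populations. Of the 14685 genes, 2215 were called (15.1%), 1038 of them higher in Sp3−/− cells (7.07%) and 1177 higher in Sp1ΔDBD/ΔDBD cells (8.01%). The groups did not overlap for 57.5% of all genes, so that a lack of overlap by itself carries little information with samples so few. The called differences were mostly modest, with a median absolute log2 difference of 0.83. A difference over 2 on the log2 scale was called for 135 genes higher in Sp3−/− and 128 genes higher in Sp1ΔDBD/ΔDBD cells. By fold alone, with a ratio of group means above 2, the threshold the study used against wild type, and more than 3 FPKM on average in the group with more, 673 genes differed (4.58%), 377 of them higher in Sp3−/− and 296 higher in Sp1ΔDBD/ΔDBD cells, and 77.0% of these 673 were also called by limma.

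**Figure D1:**
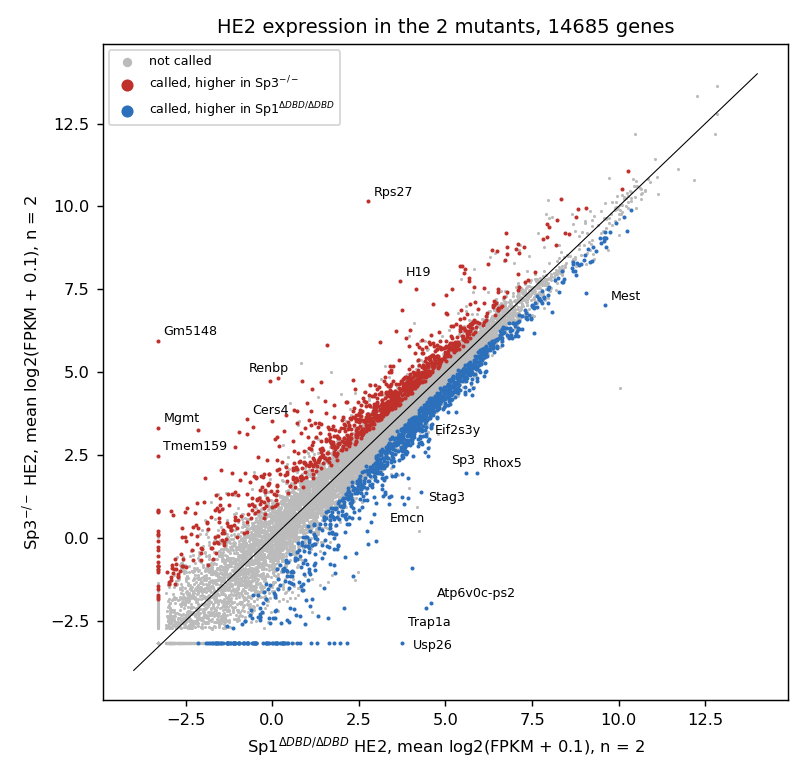
Mean log2(FPKM + 0.1) of each of 14685 genes in Sp1ΔDBD/ΔDBD HE2 cells (x axis, n = 2) and in Sp3−/− HE2 cells (y axis, n = 2), with the 1038 genes called higher in Sp3−/− in red, the 1177 called higher in Sp1ΔDBD/ΔDBD in blue and the rest in grey. The line marks equal levels, and the points in rows along the left and lower edges are genes listed at or near the floor in one mutant.

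The differences were related to the base composition of the transcripts. Over 11362 genes with a mean above 1 FPKM and an annotation, Spearman's rho across genes between the log2 difference and the GC content of the longest transcript was 0.53, and that with its length was −0.286. The median difference was −0.45 for the 691 genes under 40% GC, and 0.53 for the 456 genes of 60% GC and more. Of the genes under 40% GC, 0.289% were called higher in Sp3−/− cells and 29.1% higher in Sp1ΔDBD/ΔDBD cells. Of the genes of 60% and more, 27.6% and 0.439% were called in these directions. The relation was present between replicates too (rho −0.246 for replicate 2 minus replicate 1 in Sp1ΔDBD/ΔDBD and 0.191 in Sp3−/− cells). With the relation removed by a smooth correction for GC content and length, 1104 genes were called, 510 higher in Sp3−/− and 594 higher in Sp1ΔDBD/ΔDBD cells, and 869 of them were called in the same direction without it. Large differences were less affected. Of 260 annotated genes called with an absolute log2 difference over 2, 208 were also called with the correction. The part of base composition in each result was not tested, so the calls of a gene group with the correction are given beside it where they differ.

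**Figure D2:**
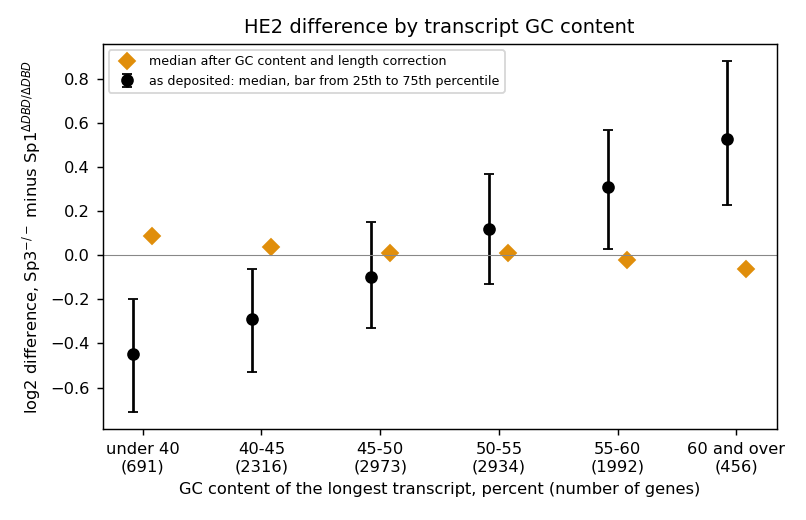
Log2 difference between Sp3−/− and Sp1ΔDBD/ΔDBD HE2 cells by the GC content of the longest transcript, for 11362 genes with a mean above 1 FPKM. Black points are medians and bars span the middle quartiles, rising from −0.45 under 40% to 0.53 at 60% and over, and orange diamonds are medians after the GC content and length correction, which lie between −0.06 and 0.09.

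The mutated genes were examined first. Sp3 was at 43.5 and 52.7 FPKM in the Sp1ΔDBD/ΔDBD samples and at 4.19 and 3.38 FPKM in the Sp3−/− samples. Both knockout samples were low, as their labels state, and the log2 difference was −3.63 ± 0.16 (SE, n = 2 per group, adjusted p = 2.28e-08). Sp1 was at 17.2 and 23.5 FPKM in Sp1ΔDBD/ΔDBD and at 28.4 and 28.5 FPKM in Sp3−/− cells. The groups did not overlap, but the difference of 0.50 ± 0.179 did not pass the test (adjusted p = 0.0772), and passed it with the GC content and length correction (0.86, adjusted p = 0.00517). A gene-level value cannot show which exons are missing, so it is no check of the deleted domain. Sp4, another member of the family that binds GC boxes, was also lower in Sp3−/− cells. Its levels were 8.99 and 12.8 FPKM against 1.94 and 2.68 FPKM (−2.18 ± 0.236, adjusted p = 0.000101). Of 23 Sp and Klf family genes in the table, 2 were called higher in Sp3−/− and 3 higher in Sp1ΔDBD/ΔDBD cells. That is 21.7% of the family genes, against 15.1% of all genes. The third gene lower in Sp3−/− cells was Klf6, at 56.7 and 70.4 against 32.3 and 32.3 FPKM (adjusted p = 0.0227). Klf16 differed little, by 0.53 (adjusted p = 0.0349). The last, Klf15, was low, at 0.0707 and 0.143 against 0.977 and 1.34 FPKM, and is named here after its values were seen. The calls of Klf6 and Klf16 were lost with the GC content and length correction, and the call of Sp4 was kept.

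Among the genes with the largest differences in favour of Sp3−/− cells, several were read in one mutant and listed at the floor in the other. Mgmt, on chromosome 7 (GRCm38, 136894614 to 137130266), encodes the enzyme that removes alkyl groups from guanine in DNA. It was listed at the floor in both Sp1ΔDBD/ΔDBD samples and at 9.19 and 10.7 FPKM in the Sp3−/− samples (adjusted p = 6.56e-07). Tmem159, which encodes a lipid droplet protein, was likewise at the floor in both Sp1ΔDBD/ΔDBD samples and at 4.98 and 6.04 FPKM in the others (adjusted p = 4.37e-08). No fold is given for these genes, since it would be set by the pseudocount. Renbp, an X-linked gene for a renin-binding protein that acts as an N-acylglucosamine epimerase, stood at 0.713 and 1.03 against 24.8 and 27.9 FPKM (4.78 ± 0.369, adjusted p = 6.93e-06). Cers4, a ceramide synthase gene, stood at 0.675 and 0.362 against 13.7 and 10.3 FPKM (4.33 ± 0.272, adjusted p = 8.56e-07). Smim20, which encodes a small mitochondrial membrane protein, stood at 0.393 FPKM and the floor against 9.77 and 9.23 FPKM (adjusted p = 0.000286). Gstk1, a glutathione transferase gene, was at 0.855 and 0.377 against 7.33 and 13.8 FPKM (3.91 ± 0.542, adjusted p = 0.000564). In all of these genes the lower Sp3−/− sample was at least several times above the higher Sp1ΔDBD/ΔDBD sample. Dynlt1f, a dynein light chain gene, was uneven, at 1.52 and 0.0607 against 2.82 and 29.1 FPKM, and lost its call without Sp3−/− replicate 2 or without Sp1ΔDBD/ΔDBD replicate 2. In all, 29 genes were called with a mean under 1 FPKM in Sp1ΔDBD/ΔDBD and above 3 FPKM in Sp3−/− cells, and 24 genes the other way round.

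Several of the largest differences in the other direction were those of X-linked genes. Usp26, an X-linked deubiquitinase gene known from testis (GRCm38, chromosome X, 51753959 to 51801233), was at 12.4 and 14.3 FPKM in Sp1ΔDBD/ΔDBD cells and at the floor in both Sp3−/− samples (adjusted p = 2.28e-08). Trap1a, an X-linked tumour rejection antigen gene, was at 42.4 and 11.0 against 0.363 FPKM and the floor (adjusted p = 0.000586). Fmr1nb, also X-linked, was at 25.3 and 10.3 FPKM against 2.34 FPKM and the floor (adjusted p = 0.00907), and lost its call without Sp3−/− replicate 2. Rhox5, a homeobox gene of the reproductive X-linked cluster, was at 68.6 and 52.8 against 3.91 and 3.71 FPKM (−3.95 ± 0.244, adjusted p = 8.05e-07). Besides Usp26, the floor in both Sp3−/− samples was seen for Olfr178, an olfactory receptor gene (4.77 and 4.04 FPKM in Sp1ΔDBD/ΔDBD cells), Gm10409 (2.74 and 5.15 FPKM), 4930447C04Rik (4.17 and 2.63 FPKM) and Snora19, a small nucleolar RNA (2.45 and 3.70 FPKM). Rgs18, a regulator of G-protein signalling of the blood lineages, was at 3.51 and 4.79 FPKM against 0.357 FPKM and the floor (adjusted p = 0.000267). Mlf1, the gene of myeloid leukaemia factor 1, was at 3.90 and 2.20 FPKM against the floor and 0.223 FPKM (adjusted p = 0.0027). The calls of Usp26, Rhox5, Olfr178, Mgmt, Tmem159, Renbp and Sp3 were kept under all alternatives of the test, including a fit of the 4 HE2 samples alone. The call of Snora19 was lost under 5 of them. Gm5148 and Atp6v0c, whose differences are uncertain as described below, also kept their calls under all alternatives. A kept call therefore does not show that reads were assigned to the right gene.

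**Figure D3:**
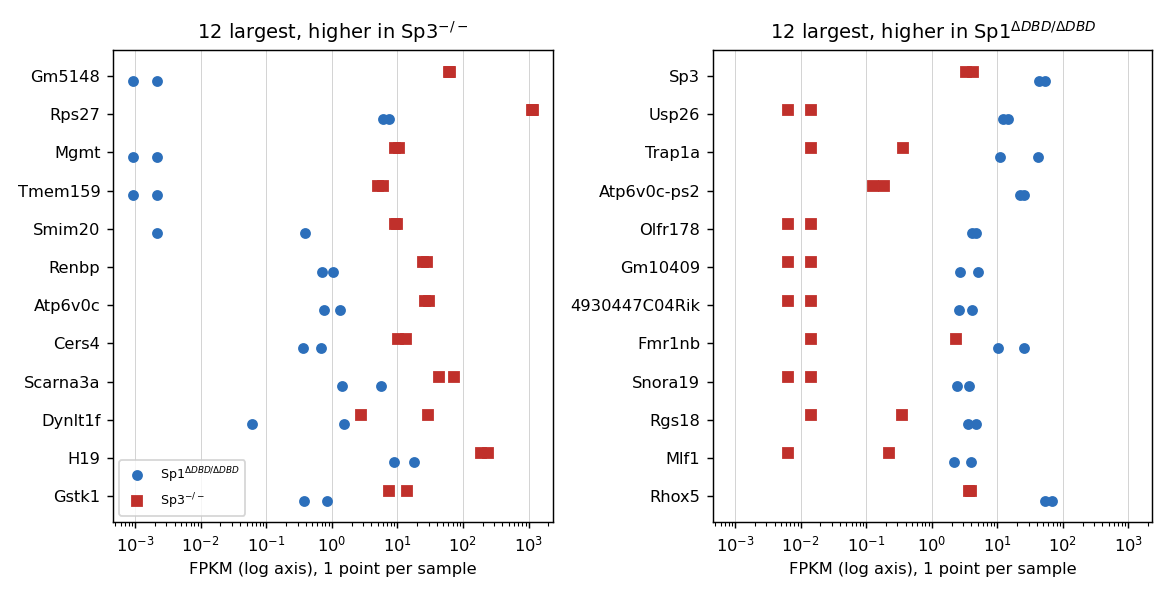
FPKM (log axis) of the 12 genes with the largest called differences in each direction, with 1 point per sample, blue circles for Sp1ΔDBD/ΔDBD and red squares for Sp3−/− HE2 cells. In each gene both samples of one mutant lie beyond both samples of the other, and the points at 0.0143 FPKM or less are at the floor of their sample.

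Upstream sequences of 5 of these genes are shown because the proteins altered in the mutants bind GC boxes and these genes were among those with the largest differences. Each is the 250 bases before the start of the RefSeq transcript with the most upstream start (build GRCm38.p6), written 5′ to 3′ on the strand of the gene, and capitals mark GGGCGG or its reverse complement CCGCCC. The positions are chr7:136894336-136894585, plus strand for Mgmt, chrX:73930851-73931100, minus strand for Renbp, chr8:4493155-4493404, plus strand for Cers4, chrX:51801234-51801483, minus strand for Usp26 and chr2:72980447-72980696, minus strand for Sp3.
Mgmt: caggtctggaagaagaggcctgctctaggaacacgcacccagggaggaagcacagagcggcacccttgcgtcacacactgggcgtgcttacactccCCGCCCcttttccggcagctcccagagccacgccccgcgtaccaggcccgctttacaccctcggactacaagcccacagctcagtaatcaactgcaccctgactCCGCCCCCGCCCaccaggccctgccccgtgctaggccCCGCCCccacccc
Renbp: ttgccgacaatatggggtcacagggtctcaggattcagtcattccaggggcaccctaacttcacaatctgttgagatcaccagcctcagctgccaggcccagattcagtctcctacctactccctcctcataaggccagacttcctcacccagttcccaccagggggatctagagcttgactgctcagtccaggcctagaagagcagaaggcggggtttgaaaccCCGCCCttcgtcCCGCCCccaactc
Cers4: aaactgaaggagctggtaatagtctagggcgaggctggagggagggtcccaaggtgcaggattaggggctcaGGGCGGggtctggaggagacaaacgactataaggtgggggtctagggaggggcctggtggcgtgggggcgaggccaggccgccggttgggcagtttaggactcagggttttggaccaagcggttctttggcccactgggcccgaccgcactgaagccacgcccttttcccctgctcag
Usp26: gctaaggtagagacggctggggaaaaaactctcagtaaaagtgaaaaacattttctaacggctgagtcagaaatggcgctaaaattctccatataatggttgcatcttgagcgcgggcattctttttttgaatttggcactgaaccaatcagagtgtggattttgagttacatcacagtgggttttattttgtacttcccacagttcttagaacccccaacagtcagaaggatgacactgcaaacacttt
Sp3: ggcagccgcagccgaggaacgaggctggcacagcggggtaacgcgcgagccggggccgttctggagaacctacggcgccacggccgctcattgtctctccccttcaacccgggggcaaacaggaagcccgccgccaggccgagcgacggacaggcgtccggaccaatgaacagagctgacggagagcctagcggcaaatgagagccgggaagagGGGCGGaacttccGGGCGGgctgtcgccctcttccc
The window of Mgmt held 4 GC boxes, that of Renbp 2, that of Cers4 1, that of Usp26 0 and that of Sp3 2. Such a match is a description of the letters and not a bound site. In windows of 300 bases, 250 before to 50 after the start, a GC box was present in 63.0% of the 11139 promoters matched to genes of the table. The share was 63.7% of 771 promoters for genes called higher in Sp3−/− cells and 67.9% of 927 for genes called higher in Sp1ΔDBD/ΔDBD cells. Genes with a mean above 1 FPKM that were not called had a GC box in 66.1% of 7297 promoters. Of the genes under 1 FPKM in Sp1ΔDBD/ΔDBD and above 3 FPKM in Sp3−/− cells, 18 of 25 promoters had a GC box (72.0%), and in the reverse set 7 of 14 (50%).

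Some of the largest differences fell on genes with a near-identical copy, for which reads may be assigned to either. Rps27, a ribosomal protein gene, was at 7.37 and 6.06 FPKM in Sp1ΔDBD/ΔDBD and at 1150 and 1125 FPKM in Sp3−/− cells (7.39 ± 2.26, adjusted p = 0.042). Its copy Rps27rt, chosen after its values were seen, held the opposite values, 1201 and 925 against 25.1 and 20.8 FPKM. The sum of both was 1208 and 931 against 1175 and 1146 FPKM and overlapped between the groups. In each of the 20 mutant samples of the series one of this pair stood at 36.7 FPKM or less and the other at 925 FPKM or more, with Rps27 the higher in 7 and Rps27rt in 13. Atp6v0c, a subunit of the vacuolar proton pump, was at 1.33 and 0.764 against 26.2 and 30 FPKM, and its pseudogene Atp6v0c-ps2 at 22.1 and 25.8 against 0.128 and 0.188 FPKM. Their sum was 23.4 and 26.5 against 26.3 and 30.2 FPKM. Both pairs also switched between replicates of a single group. In Sp3−/− Flk1+ cells Atp6v0c was at 29.6 and 1.02 FPKM and Atp6v0c-ps2 at 0.0444 and 27.4 FPKM. In Sp3−/− progenitors Rps27 was at 12.8 and 1159 FPKM and Rps27rt at 1174 and 27.0 FPKM. The differences of these pairs in HE2 are therefore uncertain as differences between the mutants. Gm5148, for which no copy was examined, was at the floor in both Sp1ΔDBD/ΔDBD samples and at 63.1 and 60.2 FPKM in the Sp3−/− samples. In ESC it was between 50.1 and 68.7 FPKM in both mutants. In Sp1ΔDBD/ΔDBD cells it stood at 51.6 and 42.7 FPKM in HE1. In Sp1ΔDBD/ΔDBD progenitors it stood at 81.2 FPKM in replicate 1 and at 0.00816 FPKM in replicate 2. The difference of Gm5148 in HE2 is therefore uncertain too.

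Among the lists with at least 20 genes in the table, the canonical histone genes had the largest share of calls in one direction. Of 69 histone genes in the table, 30 were called higher in Sp3−/− cells and 0 higher in Sp1ΔDBD/ΔDBD cells, that is 43.5%, against 15.1% of all genes called in either direction. The median difference of the 64 with a mean above 1 FPKM was 1.44, against −0.02 over all genes at this level, and the difference was positive for 63 of the 64. It was not particular to HE2, as the median of these 64 genes was 1.65 in ESC, 1.63 in Flk1+ cells, 1.93 in HE1 and 0.55 in progenitors. Hist1h2af, an H2A gene, was at 77.2 and 23.5 FPKM in Sp1ΔDBD/ΔDBD and at 303 and 280 FPKM in Sp3−/− cells (2.77 ± 0.801, adjusted p = 0.0336). Hist2h3b, an H3 gene, was at 83.5 and 23.8 against 279 and 305 FPKM (2.71 ± 0.716, adjusted p = 0.0225), and Hist1h2ap at 76.3 and 29.1 against 275 and 272 FPKM (2.53 ± 0.628, adjusted p = 0.0166). The differences of several H2B genes were smaller than these. Linker histone genes also differed less. Hist1h1a was at 870 and 700 against 998 and 1201 FPKM (0.49 ± 0.248, adjusted p = 0.209), and Hist1h1b at 558 and 638 against 707 and 828 FPKM (0.36 ± 0.116, adjusted p = 0.0524). The Sp3−/− replicates were close to each other, whereas Sp1ΔDBD/ΔDBD replicate 2 was the lowest sample for the 3 called genes given here. Without Sp1ΔDBD/ΔDBD replicate 2, 1 histone gene was called, without Sp3−/− replicate 1, 4, without Sp3−/− replicate 2, 0, and without Sp1ΔDBD/ΔDBD replicate 1, 38. With the GC content and length correction, 6 were called and the median was 0.85. These genes are near-identical copies whose reads can be shared, and their RNA has no poly(A) tail, so that it is seen here because total RNA was sequenced.

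Small nucleolar and Cajal body RNAs, which guide the modification of ribosomal and spliceosomal RNA, were also called mostly in one direction. Of 108 in the table, 25 were called higher in Sp3−/− and 2 higher in Sp1ΔDBD/ΔDBD cells. That is 25% of the list, against 15.1% of all genes. The median difference of the 103 with a mean above 1 FPKM was 0.47, against −0.02 over all genes at this level. Scarna3a was at 1.45 and 5.58 against 42.4 and 73.7 FPKM (4.24 ± 0.684, adjusted p = 0.00162), Snora44 at 10.1 and 17.6 against 81.4 and 169 FPKM (3.13 ± 0.293, adjusted p = 3e-05) and Snora78 at 155 and 74.3 against 484 and 715 FPKM (2.46 ± 0.568, adjusted p = 0.0118). Scarna10 (282 and 130 against 251 and 248 FPKM) and Scarna13 (327 and 258 against 450 and 144 FPKM) did not pass the test. With the GC content and length correction 7 were called higher in Sp3−/− and 5 higher in Sp1ΔDBD/ΔDBD cells. Without Sp3−/− replicate 2 there were 10 higher in Sp3−/−. These RNAs are shorter than the usual sequenced fragment and many lie within introns of other genes, so their FPKM values are uncertain. Of 90 ribosomal protein genes, some of them pseudogenes, 6 were called higher in Sp3−/− and 15 higher in Sp1ΔDBD/ΔDBD cells. That is 23.3%, against 15.1% of all genes. The 6 included Rps27, whose difference is uncertain as described above, and the pseudogene Rps15a-ps6, named after its values were seen. Rpl39, at 1159 and 1284 against 692 and 537 FPKM (−1.0 ± 0.142, adjusted p = 0.000633), had the largest called difference among the 15, and the median of the group was −0.08. Rpl10 was at 1216 and 1421 against 1007 and 879 FPKM (adjusted p = 0.0446) and Rpl10a at 815 and 789 against 819 and 742 FPKM (adjusted p = 0.849). With the correction 0 were called higher in Sp3−/− and 19 higher in Sp1ΔDBD/ΔDBD cells. Leaving out a sample left 0 to 2 and 4 to 14, the lowest without Sp3−/− replicate 2.

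**Figure D4:**
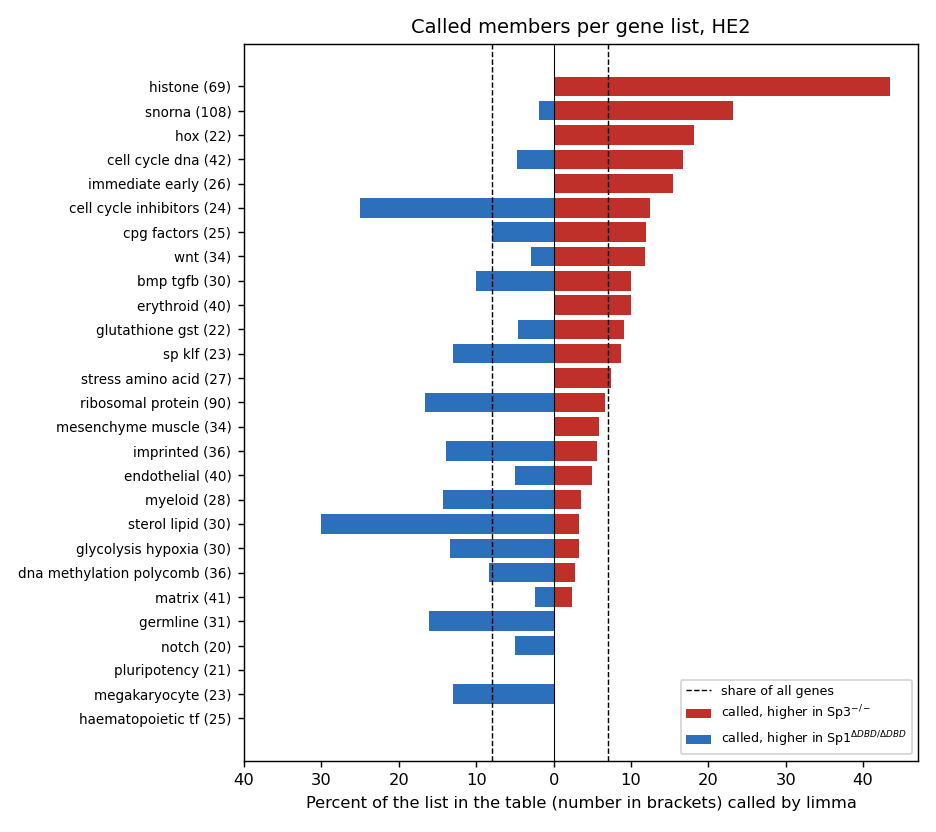
Percent of the genes of each list (number in the table in brackets) that limma called higher in Sp3−/− HE2 cells (red, to the right) or higher in Sp1ΔDBD/ΔDBD HE2 cells (blue, to the left), for lists with at least 20 genes in the table. Dashed lines mark the shares among all 14685 genes, 7.07% and 8.01%, and the histone list extends furthest, with 43.5% called higher in Sp3−/−.

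Of 25 transcription factors that direct blood formation, limma called 0, also when any 1 of the 4 samples was left out, and 3 had an unadjusted p under 0.05. The median difference of the 24 with a mean above 1 FPKM was 0.07. Runx1, which is required for the emergence of blood from haemogenic endothelium, varied within the groups more than between them, at 9.94 and 40.1 FPKM in Sp1ΔDBD/ΔDBD and 24.5 and 8.99 FPKM in Sp3−/− cells (−0.43 ± 0.697, adjusted p = 0.752). Tal1, a haematopoietic specification factor, was at 57.4 and 71.7 against 81.7 and 79.6 FPKM (0.33 ± 0.299, adjusted p = 0.508). With the GC content and length correction 1 of the 25 was called, so that small differences are not shown to be absent.

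Of 40 erythroid genes 4 were called higher in Sp3−/− cells and 0 lower, which is 10% against 15.1% of all genes. Leaving out a sample gave 2 to 3 higher and 0 to 2 lower, the latter 2 without Sp1ΔDBD/ΔDBD replicate 1. Epor, the erythropoietin receptor gene, was at 4.08 and 2.51 against 11.5 and 7.95 FPKM (1.55 ± 0.334, adjusted p = 0.00825). Alas2, which encodes the first enzyme of haem synthesis in red cells, was at 5.98 and 6.48 against 14.4 and 21.3 FPKM (adjusted p = 0.0283), and Sptb, the erythrocyte spectrin β gene, at 2.05 and 2.23 against 4.70 and 5.85 FPKM (adjusted p = 0.00953). Cd59a, which encodes an inhibitor of complement lysis, was at 1.52 and 1.37 against 14.1 and 14.4 FPKM (3.22 ± 0.322, adjusted p = 4.91e-05). The embryonic globin genes overlapped between the groups or were uneven. Hbb-bh1 was at 386 and 268 against 325 and 474 FPKM (adjusted p = 0.808) and Hbb-y at 22.7 and 21.4 against 31.5 and 81.9 FPKM (adjusted p = 0.282). The summed level of 6 erythroid markers also overlapped, at 567 and 392 against 481 and 745 FPKM. The calls of Epor and Alas2 were lost with the GC content and length correction.

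Of 23 megakaryocyte genes 3 were called, all higher in Sp1ΔDBD/ΔDBD cells, which is 13.0% and close to the 15.1% of all genes. Plek, the gene of the platelet protein pleckstrin, was at 16.5 and 30.8 against 6.24 and 6.66 FPKM (−1.79 ± 0.37, adjusted p = 0.00662), and Vwf, the von Willebrand factor gene, at 8.17 and 9.80 against 2.67 and 2.65 FPKM (−1.71 ± 0.437, adjusted p = 0.019). The third was Treml1, a platelet receptor gene named after its values were seen, at 1.16 and 0.434 FPKM against 0.288 FPKM and the floor. Without replicate 2 of either mutant 1 of these calls was left. Pf4, platelet factor 4, was at 1.45 and 1.80 against 1.29 FPKM and the floor (adjusted p = 0.12). Of 28 myeloid genes 4 were called higher in Sp1ΔDBD/ΔDBD and 1 higher in Sp3−/− cells (17.9%), and 4 and 0 with the correction. The latter was Csf2ra (0.7 and 0.121 against 2.40 and 1.46 FPKM) and one of the former Cd53 (0.452 and 1.33 FPKM against the floor in both Sp3−/− samples), both named after their values were seen. Fcgr3, an Fc receptor gene, was at 5.59 and 2.08 against 0.288 and 0.487 FPKM (adjusted p = 0.00934). Tyrobp, an adaptor of activating receptors, was at 3.03 and 3.06 against 1.68 and 1.06 FPKM (adjusted p = 0.0461), a call lost when any 1 of the 4 samples was left out. Spi1, which encodes PU.1, was at 5.63 and 5.81 against 4.90 and 3.97 FPKM (adjusted p = 0.681), and Csf1r, the receptor of macrophage colony-stimulating factor, was under 1 FPKM throughout. Ptprc, which encodes the pan-leukocyte antigen CD45, was at 0.475 and 0.341 FPKM against the floor in both Sp3−/− samples (adjusted p = 0.000402), and was the called gene among 8 sort and surface marker genes. It too is named after its values were seen. Summed over 5 markers, the myeloid level was 33.9 and 52.9 FPKM in Sp1ΔDBD/ΔDBD and 25.6 and 20.6 FPKM in Sp3−/− cells. The groups did not overlap, which held for 57.5% of all genes. Most of the sum was Mpo (16.9 and 35.5 against 16.1 and 11.5 FPKM, adjusted p = 0.223) and Lyz2 (10.5 and 10.6 against 3.97 and 4.42 FPKM, adjusted p = 0.189). Neither of these genes passed the test. Whether the number of myeloid cells differed was not tested.

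Of 40 endothelial genes 2 were called in each direction, which is 10% against 15.1% of all genes. With the GC content and length correction 1 was called higher in Sp3−/− and 3 lower, and leaving out a sample gave 0 to 6 higher and 1 to 2 lower, the 6 without Sp1ΔDBD/ΔDBD replicate 1. Emcn, the gene of the endothelial sialomucin endomucin, was at 20.2 and 9.42 FPKM in Sp1ΔDBD/ΔDBD and at 2.0 and 1.88 FPKM in Sp3−/− cells (−2.77 ± 0.537, adjusted p = 0.00455). Robo4, an endothelial guidance receptor gene, was at 6.24 and 3.59 against 1.98 and 2.0 FPKM (adjusted p = 0.0499) and lost its call under 9 alternatives. Gja4, an arterial connexin gene, differed the other way, at 15.3 and 6.72 against 26.6 and 38.8 FPKM (1.65 ± 0.391, adjusted p = 0.0133), and lost its call with the correction and without replicate 2 of either mutant. Gja5, another arterial connexin gene named after its values were seen, was at the floor in both Sp1ΔDBD/ΔDBD samples and at 0.145 and 0.25 FPKM in Sp3−/− cells. Cdh5, which encodes VE-cadherin, was at 247 and 134 against 165 and 168 FPKM (adjusted p = 0.851), and Pecam1 at 128 and 126 against 97.8 and 91.3 FPKM (adjusted p = 0.325). Neither of these defining markers of the lineage passed the test. Hes1, a target of Notch signalling, was at 8.31 and 20.9 against 4.11 and 6.54 FPKM (adjusted p = 0.0411) and was the called gene among 20 in the Notch list, a call lost with the correction (adjusted p = 0.0525), while Notch1 and Dll4 did not pass (adjusted p = 0.171 and 0.0877). Of 34 mesenchyme and muscle genes 2 were called, both higher in Sp3−/− cells and named after their values were seen, Pdgfra (0.268 and 0.145 against 0.755 and 0.674 FPKM) and Des (the floor and 0.0859 against 1.56 and 1.48 FPKM). Without Sp1ΔDBD/ΔDBD replicate 1, the sample with the high Acta2, 8 were called. Of 21 pluripotency genes limma called 0 (5 at an unadjusted p under 0.05), and of 13 epithelial genes 0 (1 at an unadjusted p under 0.05).

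Imprinted genes, which are expressed from the maternal or the paternal allele alone, included large differences in both directions. Of 36 genes, 2 were called higher in Sp3−/− and 5 higher in Sp1ΔDBD/ΔDBD cells, which is 19.4% against 15.1% of all genes. H19, a long non-coding RNA of chromosome 7, was at 18.2 and 8.99 FPKM in Sp1ΔDBD/ΔDBD and at 189 and 245 FPKM in Sp3−/− cells (4.06 ± 0.612, adjusted p = 0.001). Igf2, the growth factor gene that neighbours it, was at 581 and 501 against 501 and 303 FPKM (−0.47 ± 0.464, adjusted p = 0.551). Mest, a paternally expressed gene, was at 843 and 725 against 157 and 108 FPKM (−2.58 ± 0.281, adjusted p = 0.000104). Rian, a non-coding RNA of the Dlk1-Dio3 domain, was at 11.5 and 2.04 against 0.222 and 0.526 FPKM (−3.47 ± 0.817, adjusted p = 0.0129), and Plagl1 at 6.36 and 2.03 against 0.706 and 0.769 FPKM (−2.15 ± 0.561, adjusted p = 0.021). The other called genes, named after their values were seen, were Meg3 (3.47 and 0.465 against 0.0988 and 0.168 FPKM), Copg2 (47.0 and 60.8 against 25.3 and 25.4 FPKM) and Phlda2, at the floor in both Sp1ΔDBD/ΔDBD samples and at 0.589 and 1.18 FPKM in Sp3−/− cells. With the correction 2 were called in each direction. Rian and Plagl1 were uneven between the Sp1ΔDBD/ΔDBD replicates and lost their calls with the GC content and length correction and without replicate 1 of either mutant, whereas H19 and Mest kept theirs under these settings.

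Germline genes that were called were all higher in Sp1ΔDBD/ΔDBD cells, 5 of 31 in the table, and 5 were called in this direction in each fit that left out a sample. The 5 were 16.1% of the list, close to the 15.1% of all genes called in either direction. With the GC content and length correction 5 were called higher in Sp1ΔDBD/ΔDBD and 1 higher in Sp3−/− cells. One of them was Rhox5, described above. Stag3, a meiotic cohesin gene, was at 13.8 and 27.3 against 2.64 and 2.37 FPKM (−2.91 ± 0.34, adjusted p = 0.000189). Ddx4, the germ cell RNA helicase gene, was at 1.39 and 1.12 FPKM against the floor in both Sp3−/− samples (adjusted p = 0.000892), while Tex11 (0.741 and 0.844 FPKM against the floor in both) and Tex19.1 (1.76 and 1.5 FPKM against the floor and 0.25 FPKM) are named after their values were seen. Dazl stood at 0.576 and 0.963 against 0.752 and 0.34 FPKM (adjusted p = 0.573). Of the 31 genes only 3 had a mean above 1 FPKM over the 4 samples, so most of the list could not be measured.

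The 3 Y-linked genes with a mean above 1 FPKM were lower in Sp3−/− cells. Eif2s3y, which encodes a translation initiation factor subunit, was at 23.7 and 22.4 FPKM in Sp1ΔDBD/ΔDBD and at 8.25 and 7.33 FPKM in Sp3−/− cells (−1.55 ± 0.118, adjusted p = 6.67e-06). Uty, a histone demethylase gene, was at 8.89 and 11.9 against 2.36 and 2.16 FPKM (−2.14 ± 0.26, adjusted p = 0.000243), and Ddx3y, an RNA helicase gene, at 6.97 and 6.23 against 2.68 and 2.82 FPKM (−1.23 ± 0.201, adjusted p = 0.00171). The median of the 3 genes was −1.55 in HE2 and between −1.71 and −1.56 in the other populations. Kdm5d, a Y-linked gene at a lower level, overlapped between the groups (0.17 and 0.409 against 0.125 and 0.524 FPKM, adjusted p = 0.992). The median was −0.93 with the GC content and length correction, under which Ddx3y lost its call. On the X chromosome the median over 396 genes was −0.22, with 12 called higher in Sp3−/− and 65 higher in Sp1ΔDBD/ΔDBD cells (3.03% and 16.4%). Among the autosomes the medians ran from −0.13 on chromosomes 1 and 14 to 0.12 on chromosome 7. The autosomal shares called ran from 3.56% to 11.8% higher in Sp3−/− and from 4.64% to 13.0% higher in Sp1ΔDBD/ΔDBD cells. The median transcript GC content was 45.5% on the X chromosome and 46.4% to 52.8% on the autosomes. The X median was −0.04 with the correction, under which the calls were not counted by chromosome. Xist, the RNA that coats an inactive X chromosome, was under 1 FPKM in all 4 samples.

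Of 22 Hox genes, which pattern the body axis, 4 were called (18.2%, against 15.1% of all genes), all higher in Sp3−/− cells. They were Hoxd1, Hoxd3, Hoxd4 and Hoxd9 of the HoxD cluster, of which Hoxd1 and Hoxd3 are named after their values were seen. Hoxd4 was at 2.44 and 2.79 against 7.02 and 5.79 FPKM (1.26 ± 0.374, adjusted p = 0.0379) and Hoxd9 at 0.608 and 0.581 against 4.34 and 2.93 FPKM (2.40 ± 0.625, adjusted p = 0.0209). All 11 Hox genes with a mean above 1 FPKM had a positive difference, with a median of 1.26. With the GC content and length correction 0 were called and the median was 1.07, and leaving out a sample left 0 to 2 called.

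Of 26 immediate early genes, which respond rapidly to growth signals, 4 were called higher in Sp3−/− cells and 0 lower (15.4%, against 15.1% of all genes). Jund, an AP-1 subunit gene, was at 0.851 and 3.40 against 33.4 and 20.9 FPKM (3.86 ± 0.572, adjusted p = 0.000892). Fosb was at 2.51 and 2.55 against 6.07 and 9.01 FPKM (adjusted p = 0.0222) and Ier2 at 38.3 and 34.2 against 74.8 and 56.4 FPKM (adjusted p = 0.0258). Fos and Egr1 did not pass the test (adjusted p = 0.405 and 0.566). With the correction 1 was called higher and 1 lower, and leaving out a sample gave 1 to 3 higher and 0 to 1 lower. Under the correction the call of Jund was kept, those of Fosb and Ier2 were lost, and the difference of Srf turned from 0.50 to −0.16.

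Genes of sterol and lipid synthesis were called mostly lower in Sp3−/− cells, 9 of 30, with 1 higher. Together these were 33.3% of the list, against 15.1% of all genes. Hmgcs1, an early enzyme of cholesterol synthesis, was at 191 and 182 against 81.3 and 64.2 FPKM (−1.36 ± 0.198, adjusted p = 0.000762). Idi1 was at 60.2 and 56.3 against 32.1 and 29.5 FPKM, and Lss, the lanosterol synthase gene, at 30.4 and 20 against 13.1 and 13.0 FPKM (adjusted p = 0.0076 and 0.00444). Srebf1, which encodes a transcriptional activator of lipid synthesis, was the gene that differed the other way, at 10.8 and 9.35 against 24.4 and 23.7 FPKM (1.25 ± 0.153, adjusted p = 0.000262). With the GC content and length correction 4 were called lower in Sp3−/− and 1 higher, and without Sp3−/− replicate 2 there were 3 lower.

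Of 24 genes of the p53 response and of cell cycle arrest, 6 were called lower in Sp3−/− cells and 3 higher. That is 37.5%, against 15.1% of all genes. Ccng1, the cyclin G1 gene and a target of p53, was at 119 and 159 against 69.3 and 67.6 FPKM (−1.01 ± 0.169, adjusted p = 0.00205). Bbc3, which encodes the pro-apoptotic protein PUMA, differed the other way, at 7.0 and 7.73 against 15.4 and 12.9 FPKM (0.93 ± 0.274, adjusted p = 0.0365). Trp53 itself was at 81.5 and 93.3 against 116 and 110 FPKM (adjusted p = 0.175). Of 42 genes of DNA replication and division, 7 were called higher in Sp3−/− and 2 higher in Sp1ΔDBD/ΔDBD cells (21.4%). Tk1, thymidine kinase, was at 33.5 and 39.1 against 56.1 and 62.3 FPKM (0.71 ± 0.13, adjusted p = 0.00339), and Top2a, topoisomerase II, at 258 and 378 against 174 and 165 FPKM (−0.88 ± 0.237, adjusted p = 0.0242). Mcm2 and Mki67 did not pass the test (adjusted p = 0.106 and 0.417). With the correction the counts were 0 higher and 3 lower for the arrest list and 2 higher and 0 lower for the replication list. Leaving out a sample gave 0 to 2 higher and 2 to 4 lower for the arrest list and 2 to 3 higher and 0 to 4 lower for the replication list, for which 3 higher and 4 lower were called without Sp1ΔDBD/ΔDBD replicate 1.

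Among chromatin regulators the Polycomb genes Cbx7, Cbx2 and Mtf2 were lower in Sp3−/− cells and Cbx6 was higher. These were 4 calls of 36, which is 11.1% against 15.1% of all genes. Cbx7, a chromodomain subunit, was at 7.10 and 7.09 against 1.57 and 1.05 FPKM (−2.37 ± 0.219, adjusted p = 2.63e-05), and Cbx6 at 5.26 and 5.68 against 9.63 and 9.91 FPKM (0.83 ± 0.121, adjusted p = 0.000857). With the correction the call of Mtf2 was lost. The DNA methyltransferase genes Dnmt1 and Dnmt3a did not pass (adjusted p = 0.585 and 0.774). Of 25 factors that bind CpG-rich promoters 5 were called, with Zfx lowest in Sp3−/− cells relative to Sp1ΔDBD/ΔDBD, at 13.0 and 15.8 against 5.57 and 5.73 FPKM (−1.33 ± 0.305, adjusted p = 0.0114), and with the correction 0 were called. Nfya and Nrf1 did not pass (adjusted p = 0.48 and 0.38).

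The remaining lists had between 4.88% and 20% of their genes called, against 15.1% of all genes. In BMP and TGFβ signalling 3 of 30 genes were called in each direction, with the ligand gene Tgfb1 higher in Sp3−/− cells (11.5 and 9.29 against 25.9 and 21.5 FPKM) and the receptor gene Tgfbr1 lower (20.2 and 35.1 against 11.5 and 13.5 FPKM). In Wnt signalling 4 of 34 were higher in Sp3−/− and 1 lower, with Tcf7, a nuclear mediator, at 0.969 and 1.27 against 5.28 and 4.36 FPKM (adjusted p = 0.0341), and with the correction 0 calls were left in either direction for the BMP and TGFβ list and 1, lower in Sp3−/−, for the Wnt list. Of 30 glycolysis and hypoxia genes 4 were lower in Sp3−/− and 1 higher, with the mitophagy gene Bnip3 at 12.6 and 14.1 against 3.64 and 3.79 FPKM (−1.81 ± 0.287, adjusted p = 0.00141) and the phosphofructokinase gene Pfkm at 17.4 and 15.7 against 8.96 and 8.11 FPKM (−0.95 ± 0.127, adjusted p = 0.00043). Of 22 glutathione genes 2 were higher in Sp3−/− and 1 lower, and of 27 genes of the amino acid stress response 2 were higher, Slc7a1 and Shmt2 (adjusted p = 0.00597 and 0.0234). Of 41 matrix genes 1 was called in each direction, Lama5 higher in Sp3−/− and Col11a1 lower (adjusted p = 0.0142 and 0.0159). With the correction the glycolysis list had 0 higher and 3 lower, the stress list 1 higher and the matrix list 0 higher and 1 lower.

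The same difference between the mutants was then examined in the other populations, which use other samples of the same cell lines. It was called for 1962 genes in HE1, the preceding haemogenic endothelium (KIT+ CD41− Tie2+), 1640 in progenitors (KIT+ CD41+ Tie2−), 969 in Flk1+ cells and 1317 in ESC. Of the 2215 HE2 calls, 1233 were called in the same direction in HE1, which is 55.7% of the HE2 calls and 62.8% of the HE1 calls. The corresponding shares were 41.8% and 56.4% for progenitors, 25.9% and 59.1% for Flk1+ cells, and 24.3% and 40.9% for ESC. Calls in opposite directions were rare, 2 in HE1, 2 in progenitors, 2 in Flk1+ cells and 9 in ESC. Of all genes, 15.1% were called in HE2. The difference also followed transcript GC content in HE1 (Spearman's rho 0.406), progenitors (0.457), Flk1+ cells (0.442) and ESC (0.321). The part of base composition in the shared calls was not tested, since the correction was applied to the HE2 samples alone. In all 5 populations 80 genes were called higher in Sp3−/− and 118 higher in Sp1ΔDBD/ΔDBD cells. In Sp1ΔDBD/ΔDBD cells, HE1, HE2 and progenitors of the same number deviated together from their group means (correlations across genes of 0.442 to 0.639). In Sp3−/− cells they did so little (0.0551 to 0.171). These populations are therefore not fully independent.

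Whether the difference in HE2 itself departed from that in another population was tested as a difference of differences. It was called for 160 genes against ESC (1.09%), 37 against Flk1+ cells (0.252%), 18 against progenitors (0.123%) and 2 against HE1 (0.0136%). With the shared blast culture modelled as a correlation the last counts were 45 and 22, and with a replicate block 2 and 0. At an unadjusted p under 0.05 there were 597 genes against HE1, so that the low count there does not show that the populations were alike. The 2 genes called against HE1, named after their values were seen, were low. Spink8 was at 1.15 and 2.07 FPKM in Sp1ΔDBD/ΔDBD HE2 cells and at the floor in both Sp3−/− samples, and Ccdc178 at 0.791 and 1.23 FPKM and at the floor. Several of the genes with near absence in one mutant at HE2 were alike or closer in ESC. Mgmt was between 4.11 and 12.1 FPKM in all 4 mutant ESC samples, and the loss in Sp1ΔDBD/ΔDBD cells was seen from Flk1+ cells on (0.203 and 0.0324 FPKM, against 7.47 and 8.45 FPKM in Sp3−/−), with 1.22 and 0.779 FPKM left in progenitors. The test against ESC gave adjusted p = 0.000384 and that against progenitors 0.0195. Tmem159 was at 1.11 and 0.771 against 1.58 and 1.82 FPKM in ESC, and at 10.5 and 10.3 FPKM in Sp3−/− HE1 cells with both Sp1ΔDBD/ΔDBD HE1 samples at the floor. Renbp was at 26.4 and 11.4 against 18 and 20.5 FPKM in ESC (adjusted p = 0.00118 for the departure of HE2). Usp26 was already apart in ESC, at 38.8 and 47.7 FPKM in Sp1ΔDBD/ΔDBD and at 2.31 and 1.58 FPKM in Sp3−/− cells.

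**Figure D5:**
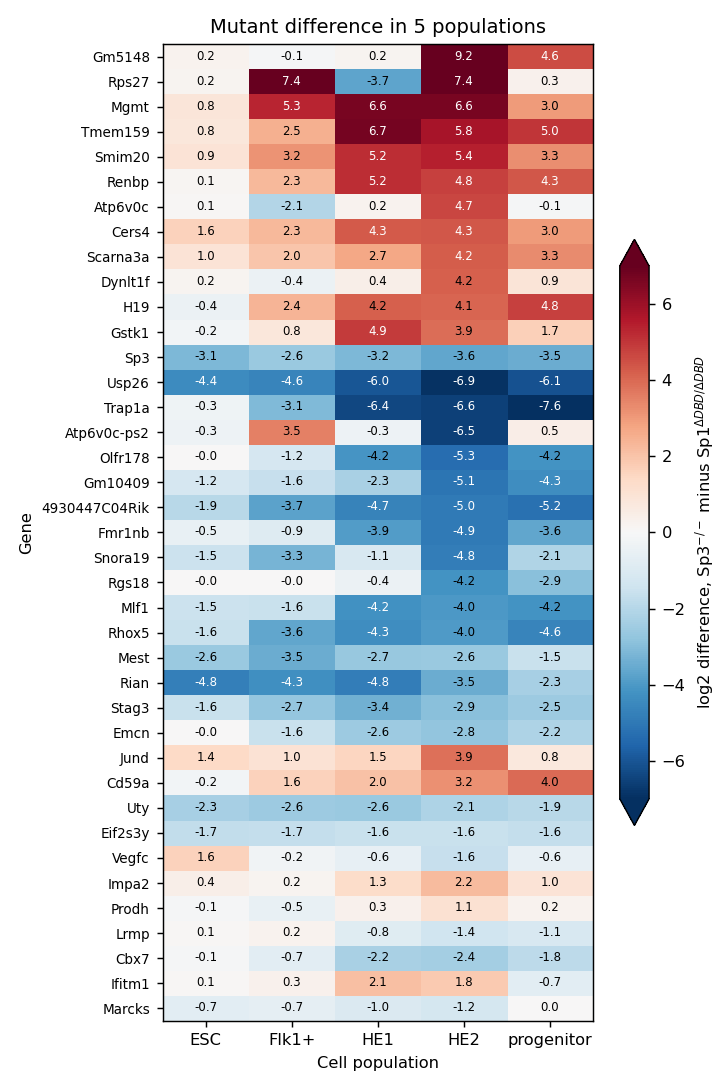
Log2 difference, Sp3−/− minus Sp1ΔDBD/ΔDBD on log2(FPKM + 0.1), in each of 5 populations (columns) for named genes (rows), with red for higher in Sp3−/− and blue for higher in Sp1ΔDBD/ΔDBD cells. The difference of Sp3 was between −3.63 and −2.62 in the 5 populations, whereas those of Rps27 and Atp6v0c, which have a near-identical copy, changed sign between populations.

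Other genes departed in direction or size. Vegfc, a growth factor gene of lymphatic endothelium, was lower in Sp3−/− HE2 cells (11.0 and 12.7 against 3.90 and 3.58 FPKM) but higher in Sp3−/− ESC (1.52 and 2.82 against 6.56 and 6.69 FPKM, adjusted p = 0.000682 for the departure). Cbx7 was nearly level in ESC (49.6 and 46.4 against 46.4 and 45.6 FPKM, adjusted p = 0.00341). Impa2, an inositol monophosphatase gene, was higher in Sp3−/− HE2 cells (3.45 and 2.28 against 13.0 and 13.9 FPKM, 2.22 ± 0.181) and differed by 0.17 in Flk1+ cells, with adjusted p = 0.00563 for the departure. Prodh, a proline dehydrogenase gene, was at 11.1 and 9.82 against 22.1 and 21.8 FPKM in HE2 and at 8.65 and 9.94 against 6.70 and 6.0 FPKM in Flk1+ cells (adjusted p = 0.00563). Lrmp, a lymphoid membrane protein gene, was lower in Sp3−/− HE2 cells (20 and 19 against 8.07 and 6.58 FPKM) and differed by 0.25 in Flk1+ cells (adjusted p = 0.0175). Against progenitors, Ifitm1, an interferon-induced membrane protein gene, was at 3.11 and 1.97 against 7.45 and 10.6 FPKM in HE2 and at 16.8 and 19.7 against 14.1 and 8.48 FPKM in progenitors (adjusted p = 0.0111). Marcks, a protein kinase C substrate gene, was at 46.1 and 57.6 against 22.4 and 21.7 FPKM in HE2 and at 18.3 and 20.9 against 21.6 and 18.6 FPKM in progenitors (adjusted p = 0.0244). Rbm18 and Cpne7 did not differ beyond the test in HE2 and were called because of their differences in progenitors (5.23 and 5.92 FPKM in Sp3−/− against 15.8 and 13.4 FPKM) and in Flk1+ cells (1.27 and 1.63 FPKM in Sp3−/− against 0.0311 and 0.0136 FPKM).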

How the data were processed

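RNA was sequenced from E14 ESC and cells derived from them, with 2 replicates per population and genotype, which the study describes as biological replicates. Total RNA libraries were prepared after ribosomal RNA depletion with a kit that keeps strand and sequenced in pairs. The authors aligned the reads to mm10 with HISAT2 2.1.0, calculated FPKM with StringTie (1.3.3 in the submitters' processing notes), dropped genes that nowhere exceeded 1 FPKM and applied quantile normalisation to the deposited FPKM values. Depth is unknown, and error was taken from replicates alone. Quantile normalisation gives all samples the same distribution and would hide a global shift.

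Samples were grouped by their labels. limma (in R, empirical Bayes with intensity trend) was fitted to log2(FPKM + 0.1) of the 20 mutant samples in 10 groups, with 10 residual and 3.63 prior degrees of freedom, all 14685 genes and an adjusted p threshold of 0.05. Fold changes on this scale understate those of low genes. The direct test was chosen here, since the study compared each mutant with wild type by fold only. The members and gene lists were chosen with earlier results of these data known. Of the gene symbols 14559 were matched to GENCODE M21 (GRCm38), 189 of them by an older symbol. The GC content and length correction was a loess of each HE2 sample's deviation (span 0.5). The limma step was also run on simulated data with noise independent between samples. That simulation did not hold the shared replicate deviations or the relation to GC content seen here, so it is no check of their effect. Same-numbered HE2 samples of the mutants did not deviate together (correlation across genes −0.0305), so the numbers were not taken as pairs.

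Named were Sp1, Sp3 and the sort markers, the 12 genes with the largest called difference in each direction whose higher group averaged over 3 FPKM and whose groups did not overlap, the first 2 members and up to 4 such called members of each of 30 lists, and for each difference of differences the 2 genes in each direction with the smallest adjusted p at that level. Others are marked as chosen after their values were seen. Genes of these sets that are not described are counted only. Upstream sequences are from RefSeq (GRCm38.p6). Alternatives were another pseudocount, a minimum level, all 30 samples, the 4 samples alone, a shared blast culture, a replicate block, each sample left out, centring, the GC content and length correction and no trend.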

Additional observations from a re-analysis of the deposited data

Results flagged for a closer look

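For some of the genes described, the difference between the mutants (Sp3−/− minus Sp1ΔDBD/ΔDBD) in HE2 departed from that in another population by the limma test of the difference of differences, in log2 units and adjusted over all genes. The difference was higher in HE2 than in ESC for Mgmt 5.79 (adjusted p = 0.000384), Tmem159 4.97 (adjusted p = 8.47e-05), Renbp 4.64 (adjusted p = 0.00118), Smim20 4.48 (adjusted p = 0.0412), H19 4.46 (adjusted p = 0.0249) and Gstk1 4.09 (adjusted p = 0.0198). The same held for Cd59a 3.39 (adjusted p = 0.00341), Cers4 2.73 (adjusted p = 0.00491), Snora44 2.08 (adjusted p = 0.0284), Impa2 1.81 (adjusted p = 0.00491), Ifitm1 1.71 (adjusted p = 0.0291) and Prodh 1.13 (adjusted p = 0.0108). The same held for Srebf1 1.03 (adjusted p = 0.0368). The difference was lower in HE2 than in ESC for Trap1a −6.27 (adjusted p = 0.0353), Olfr178 −5.35 (adjusted p = 0.00341), Rgs18 −4.20 (adjusted p = 0.0145), Gm10409 −3.96 (adjusted p = 0.00553), Vegfc −3.27 (adjusted p = 0.000682) and 4930447C04Rik −3.01 (adjusted p = 0.0198). The same held for Usp26 −2.50 (adjusted p = 0.0119), Rhox5 −2.37 (adjusted p = 0.00576), Cbx7 −2.31 (adjusted p = 0.00341), Bnip3 −1.83 (adjusted p = 0.0477), Lrmp −1.47 (adjusted p = 0.0119) and Cbx2 −1.07 (adjusted p = 0.0427).

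The difference was higher in HE2 than in Flk1+ cells for Tmem159 3.29 (adjusted p = 0.00563), Cers4 2.05 (adjusted p = 0.0482), Impa2 2.05 (adjusted p = 0.00563) and Prodh 1.60 (adjusted p = 0.00563). The difference was lower in HE2 than in Flk1+ cells for Rgs18 −4.20 (adjusted p = 0.0383), Olfr178 −4.19 (adjusted p = 0.0344), Gm10409 −3.49 (adjusted p = 0.0241), Cpne7 −3.34 (adjusted p = 0.013), Usp26 −2.29 (adjusted p = 0.0461) and Lrmp −1.66 (adjusted p = 0.0175). The same held for Cbx7 −1.65 (adjusted p = 0.0469). The difference was higher in HE2 than in progenitors for Mgmt 3.64 (adjusted p = 0.0195), Ifitm1 2.53 (adjusted p = 0.0111), Sptb 2.32 (adjusted p = 0.039) and Rbm18 1.37 (adjusted p = 0.0106). The difference was lower in HE2 than in progenitors for Marcks −1.25 (adjusted p = 0.0244). These genes had been chosen for their differences in HE2 or for the departure itself, so the values are a description. Values of genes at the floor in one mutant depend on the pseudocount.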

How the results depend on the processing

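The count of 2215 calls was within 1.5 times of itself with a pseudocount of 1, a minimum of 1 FPKM, all 30 samples, a shared blast culture, centring, no trend and the replicate block (1724). It was 23 (12 higher in Sp3−/−, 11 higher in Sp1ΔDBD/ΔDBD) in a fit of the 4 HE2 samples alone, which has 2 residual degrees of freedom, and 1104 (510 and 594) with the GC content and length correction. Leaving out a sample gave 729 to 2292 calls (312 to 1080 higher in Sp3−/−, 417 to 1212 higher in Sp1ΔDBD/ΔDBD), 729 without Sp3−/− replicate 2, 955 without Sp1ΔDBD/ΔDBD replicate 2 and 1261 without Sp3−/− replicate 1. The cause was not tested. By fold, 673 genes became 1611 (780 and 831) with no minimum FPKM, 191 in place of 296 were higher in Sp1ΔDBD/ΔDBD with a pseudocount of 1, and leaving out a sample gave 656 to 1095 (335 to 653 higher in Sp3−/−, 287 to 442 higher in Sp1ΔDBD/ΔDBD), with 1095 without Sp1ΔDBD/ΔDBD replicate 1.

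For the differences of differences, a pseudocount of 1 gave 322 genes against ESC, 72 against Flk1+ cells, 0 against HE1 and 41 against progenitors. The replicate block, whose numbers do not pair the samples, gave 62, 0, 0 and 2, and a shared blast culture 22 against HE1 and 45 against progenitors. Leaving out a sample gave 69 to 174 genes against ESC, 8 to 37 against Flk1+ cells, 0 to 8 against HE1 and 4 to 15 against progenitors. The lowest of these were reached without Sp3−/− replicate 2 (69, 8, 0 and 4), and 81 against ESC without Sp1ΔDBD/ΔDBD replicate 2 and 103 without Sp3−/− replicate 1. Of the 107 called genes named by the rule, 107 kept their call when centred, 105 with a pseudocount of 1, 98 with the replicate block, 55 to 87 when a sample was left out (55 without Sp3−/− replicate 2, 56 without Sp1ΔDBD/ΔDBD replicate 2, 65 without Sp3−/− replicate 1), 60 with the GC content and length correction and 14 in the 4 samples alone, and the one change of sign was Srf with that correction (−0.16, adjusted p = 0.64).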
